A study of Mus musculus with 4 samples.

Results

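The genes described here are 38 chaperone and stress-response genes of the mouse, of 28625 genes counted: 26 act in or signal from the endoplasmic reticulum (ER), and 12 act in the cytosol or in mitochondria. They were given as a list by symbol, drawn up with earlier results of these data known although no measured value enters its rule, and all 38 are in the count tables. The ER members are 14 genes of folding and translocation, 4 stress transcription factors, 5 targets of ATF4 and the integrated stress response, and 3 genes of ER-associated degradation. The other 12 are 9 cytosolic chaperones, the 2 subunits of the mitochondrial chaperonin and the heat shock factor gene Hsf1. The list is called cytosolic for short, although Hspd1 and Hspe1 act in mitochondria.

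The cells came from mediastinal lymph nodes of mice given 10 µg of Alternaria alternata extract, a fungal allergen, and 25 µg of NP-OVA, a hapten coupled to ovalbumin, by the intranasal route, and were taken on day 7. Cells were sorted through either of 2 gates and then treated with PMA and ionomycin, which mimic T cell receptor signals, for 30 min, so every cell described here was restimulated and no unstimulated cells serve as controls. The IL-4 reporter sort took TCRβ+ CD4+ CD44+ GFP+ cells of the C57BL/6 4GET IL-4 Reporter strain, in which GFP marks cells that have opened the Il4 gene. The Tfh sort took TCRβ+ CD4+ CD44+ PD-1+ CXCR5+ T follicular helper (Tfh) cells of C57BL/6 mice. Each sort was run as 1 lane of droplet single-cell RNA sequencing with 3 mice marked by hashtag antibodies, and the age and sex of the mice are not given in the sources used here. Strain, chemistry (version 3 for the reporter sort, version 2 for the Tfh sort) and sequencer differ together between the sorts, so levels were not compared between them.

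Within each sort, T cells were grouped by their own transcripts: Il13+, Il4+, Il21+ or Gata3+ cells held 2 or more unique molecular identifiers (UMIs) of that gene, each set against T cells with 0. Cycling cells held 2 or more UMIs over Mki67 and Top2a, and non-cycling cells held 0. T cells held a Cd3d, Cd3e or Cd3g UMI and no Cd79a UMI, B cells held 2 or more Cd79a UMIs, and plasma-like cells held 20 or more Jchain UMIs. Il13 and Il4 are the cytokine genes of type 2 helper cells, Il21 is made by Tfh cells, and Gata3 encodes the factor that directs the type 2 programme. States that share T cells are not independent, since every Il13-negative or Il4-negative group draws on the same cells of the same 3 mice.

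The ER folds proteins bound for secretion or the cell surface. When unfolded proteins build up, the sensors IRE1, PERK and ATF6 act through the factors XBP1, ATF4 and cleaved ATF6 to raise chaperones, folding enzymes and degradation of misfolded proteins, and plasma cells are the lymphocytes best known for this programme. In the cytosol, heat shock factor 1 raises HSP70, HSP90 and their J-domain partners, which also serve newly made proteins in growing cells.

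The Tfh library held 3956 barcodes and the reporter library 7646. Filters of 500 genes and a mitochondrial share of 10% left 3916 Tfh barcodes (99.0%) and 4585 reporter barcodes (59.97%), because 2772 reporter barcodes were above the mitochondrial limit. A mouse could be assigned to 3780 cells of the Tfh sort and 3989 of the reporter sort, the sums per mouse were 3378446 to 5434703 UMIs in the Tfh sort and 12024433 to 15123654 in the reporter sort, and the libraries shared 1 barcode. The median cell held 2703.5 UMIs in the Tfh sort and 6618 in the reporter sort. Each cell was therefore thinned to 2000 UMIs and shallower cells were left out, which kept 2459 of 3033 T cells, 346 of 545 B cells and 21 of 21 plasma-like cells in the Tfh sort, and 3331 of 3630, 232 of 236 and 15 of 15 in the reporter sort. The 7 T cell markers were detected in T cells of both sorts, at 4951 CPM (UMIs per 1000000) summed in the reporter sort and 5671 in the Tfh sort, with 7 B cell markers at 21.2 and 104.7. B cells and plasma-like cells lie outside the gates of both sorts. A Cd3 UMI was present in 206 of 545 B cells of the Tfh sort and 123 of 236 of the reporter sort, and in 19 of 21 and 11 of 15 plasma-like cells. The part of T cell RNA in their values was not removed.

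Levels are in CPM after thinning, from UMIs summed over the cells of a mouse, and counted from the 3′ end, so that values of different genes are not compared. In T cells of the reporter sort, Hspa5, which encodes BiP, the main HSP70 of the ER lumen, averaged 702 ± 29.5 CPM (SD, n = 3 mice, as for the levels that follow), and in T cells of the Tfh sort it averaged 1316 ± 97.1. Hsp90b1, the ER form of HSP90 also called GRP94, averaged 242 ± 32.3 CPM in reporter-sort T cells and 177 ± 4.93 in Tfh-sort T cells. Xbp1 averaged 88.7 ± 0.411 and 185 ± 13.8, and Atf4, the factor raised through PERK, 115 ± 11.9 and 108 ± 1.73. The 3 mice of a sort lay close together for each of these 4 genes. Ddit3, which encodes the stress factor CHOP, was low, at 26.5 ± 2.08 CPM in reporter-sort T cells and 23.9 ± 4.91 in Tfh-sort T cells.

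Among the cytosolic members, the constitutive HSP70 gene Hspa8 averaged 1468 ± 125 CPM in reporter-sort T cells and 2653 ± 140.4 in Tfh-sort T cells. Hsp90ab1, the constitutive cytosolic HSP90, averaged 2158 ± 190.2 and 1404 ± 96.1. Hspd1, the HSP60 subunit of the mitochondrial chaperonin, averaged 208 ± 30.5 and 182 ± 19.95. The heat-inducible Hspa1a was both scarce and variable between mice, at 17.3 ± 12.7 CPM in reporter-sort T cells and 29.9 ± 16.1 in Tfh-sort T cells. Its near-identical neighbour Hspa1b gave 45 thinned UMIs over all T cells of the reporter sort and 2 over those of the Tfh sort, and how reads were split between the pair is uncertain. Hspa8, Hspd1, Hspe1 and the HSP90 genes have processed pseudogenes, so a share of their reads may likewise be uncertain. In no comparison did 6 members reach the count minimum of the tests: Trib3, Asns, Chac1, Sesn2, Hspa1b and Bag3. Of these, Trib3 and Chac1, both targets of ATF4 and CHOP, gave 3 and 0 UMIs over all thinned T cells of the reporter sort and 2 and 2 over those of the Tfh sort.

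The promoters of several of these genes hold the ER stress response element (ERSE), the site known for binding of NF-Y and cleaved ATF6, and those of heat shock genes hold heat shock elements (HSE). RefSeq windows of 300 bases around the annotated start (build GRCm38.p6) could be matched for 31 of the 38 members. Searched on both strands as CCAAT and CCACG with 9 bases of any kind between them, the ERSE was found in 39 of 32851 windows of all genes (0.119%) and in those of 7 members: Hspa5, Hsp90b1, Calr, Pdia6, Creld2, Canx and Dnajc3. The related ERSE-II, searched on both strands as ATTGG, any base and CCACG, was in 12 windows (0.0365%), among them that of Herpud1. An HSE searched on both strands as GAA, TTC and GAA with 2 bases of any kind between each was in 198 windows (0.603%), among them those of Hspd1, Hspe1 and Hsph1. The ATF4 site searched on both strands as TGATG, any base and AAT was in 317 windows (0.965%) and in no member's window. Hspd1 and Hspe1 are transcribed away from each other, and their windows overlap. The windows of Hspa5, Hsp90b1, Calr, Pdia6 and Hspd1 are shown because these genes carry the contrasts described later, namely 3 ERSE-bearing genes that rose in Il13+ cells, Hspa5, which bears an ERSE and was not called there, and Hspd1 as a chaperone gene with HSE matches. They lie at chr2:34771840-34772139 on the plus strand, chr10:86705395-86705694 and chr8:84846882-84847181 on the minus strand, chr12:17266339-17266638 on the plus strand and chr1:55087883-55088182 on the minus strand, each written 5′ to 3′ on the gene's strand, with the matched bases in capitals (an ERSE, or the 2 overlapping HSE matches of Hspd1), and an element that starts with CGTGG is a match on the opposite strand.
Hspa5: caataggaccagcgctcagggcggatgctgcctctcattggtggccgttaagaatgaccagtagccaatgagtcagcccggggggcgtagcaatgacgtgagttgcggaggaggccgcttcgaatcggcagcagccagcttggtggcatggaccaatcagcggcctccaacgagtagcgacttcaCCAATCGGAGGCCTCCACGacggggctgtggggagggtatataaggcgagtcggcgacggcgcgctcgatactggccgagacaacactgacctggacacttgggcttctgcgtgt
Hsp90b1: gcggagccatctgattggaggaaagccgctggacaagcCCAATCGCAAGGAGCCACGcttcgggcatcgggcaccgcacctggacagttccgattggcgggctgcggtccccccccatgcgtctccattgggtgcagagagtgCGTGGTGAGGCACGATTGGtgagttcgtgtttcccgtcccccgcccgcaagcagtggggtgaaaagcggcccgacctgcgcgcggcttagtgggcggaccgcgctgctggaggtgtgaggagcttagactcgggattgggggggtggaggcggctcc
Calr: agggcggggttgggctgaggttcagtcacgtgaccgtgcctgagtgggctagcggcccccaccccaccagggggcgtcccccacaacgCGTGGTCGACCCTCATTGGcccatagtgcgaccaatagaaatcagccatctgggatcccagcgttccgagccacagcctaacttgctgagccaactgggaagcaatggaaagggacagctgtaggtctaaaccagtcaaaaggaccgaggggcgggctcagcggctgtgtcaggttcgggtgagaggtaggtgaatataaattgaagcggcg
Pdia6: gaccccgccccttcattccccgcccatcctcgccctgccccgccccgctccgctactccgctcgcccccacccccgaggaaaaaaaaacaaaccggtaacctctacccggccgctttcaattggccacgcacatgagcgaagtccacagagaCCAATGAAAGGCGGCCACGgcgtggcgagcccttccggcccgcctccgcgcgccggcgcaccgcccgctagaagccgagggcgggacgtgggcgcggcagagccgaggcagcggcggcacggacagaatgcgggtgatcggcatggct
Hspd1: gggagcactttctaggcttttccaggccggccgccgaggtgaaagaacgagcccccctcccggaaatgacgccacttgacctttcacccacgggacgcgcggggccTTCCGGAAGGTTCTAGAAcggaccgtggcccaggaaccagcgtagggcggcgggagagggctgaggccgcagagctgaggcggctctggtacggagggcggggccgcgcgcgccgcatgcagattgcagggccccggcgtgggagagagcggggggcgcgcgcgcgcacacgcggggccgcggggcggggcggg
A match of letters is a description of the window and shows no binding in these cells.

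Differences between groups were tested with edgeR's quasi-likelihood test on thinned UMIs summed per mouse and group, with the mouse as a block, and a member is called at a Benjamini-Hochberg adjusted p under 0.05 over all genes tested. Log2 changes are those of this test, first-named group over second, with the standard error that the F statistic implies. They are scaled by TMM and can differ from the ratio of the raw levels where composition differs, as between B cells and T cells. Outside plasma-like cells, the called members that passed the count minimum only through the group in which they were higher were Hyou1 for Il13+ cells of the reporter sort, and Atf6 for B cells and Ddit4 for Il21-negative cells of the Tfh sort. All 13 within-sort comparisons are drawn in the plot of log2 changes by member.

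**Figure D1:**
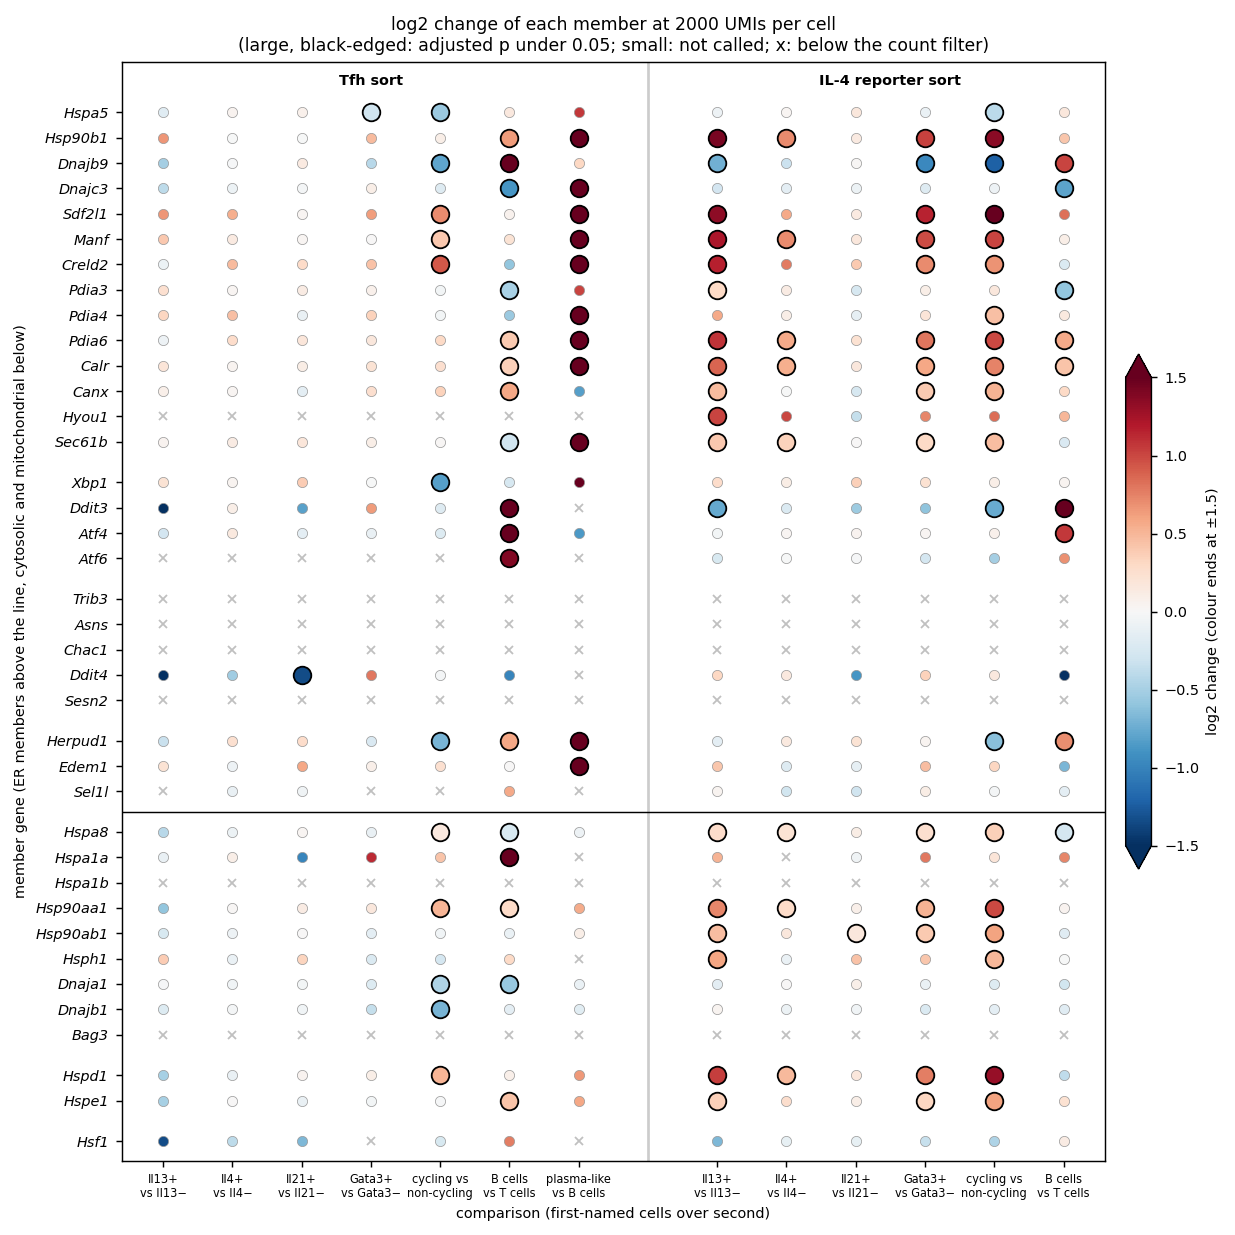
Log2 change (colour, first-named cells over second) of each of the 38 members, in rows, for 7 comparisons in the Tfh sort and 6 in the IL-4 reporter sort, in columns. Large black-edged points are members with an adjusted p under 0.05, small points were not called and crosses did not pass the count minimum. The red block of ER folding genes is deepest in plasma-like against B cells of the Tfh sort and in Il13+, Gata3+ and cycling T cells of the reporter sort, whereas Il13+, Il4+, Il21+ and Gata3+ cells of the Tfh sort have 2 called members in all.

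In the reporter sort, Il13+ T cells held more transcripts of ER folding genes and of cytosolic and mitochondrial chaperones than Il13-negative T cells, while the ER stress factor gene Ddit3 and Dnajb9 were lower and Hspa5 was not called. Of 22 ER members tested, 10 rose and 2 fell, and of 10 cytosolic members 6 rose and none fell. Over all genes tested the test called 34.9% in either direction, 18.0% higher and 16.9% lower. The median log2 change was 0.36 over the tested ER members and 0.41 over the cytosolic members, against -0.03 over all genes tested. There were 646 Il13+ and 2379 Il13-negative cells at this depth.

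Among the luminal chaperones, Hsp90b1 had 415, 455 and 595 CPM in Il13+ cells, against 147, 179 and 207 in Il13-negative cells, and rose in Il13+ cells (log2 change 1.42 ± 0.10, adjusted p = 3.02e-12). All 3 Il13+ values lay above all 3 Il13-negative values. Manf, a luminal stress-induced protein that binds BiP, had 297, 281 and 387 CPM in Il13+ cells, against 133, 106 and 163 in Il13-negative cells (log2 change 1.23 ± 0.11, adjusted p = 8.90e-10). Its groups did not overlap either. Sdf2l1, a luminal partner of the BiP and ERdj3 system, had 86.9, 62.8 and 117 CPM in Il13+ cells, against 30.7, 40.6 and 29.8 in Il13-negative cells (log2 change 1.34 ± 0.22, adjusted p = 2.08e-05). Hspa5 itself, the partner of these proteins, had 661, 723 and 669 CPM in Il13+ cells, against 659, 725 and 727 in Il13-negative cells (log2 change -0.08 ± 0.08, adjusted p = 0.512), and its groups overlapped. Hyou1, the large HSP70-like exchange factor of the ER, rose by 1.02 and Creld2, a stress-induced disulfide isomerase, by 1.17 on the log2 scale.

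The lectin chaperones, which hold glycoproteins during folding, were higher too. Calr, which encodes calreticulin, had 674, 727 and 911 CPM in Il13+ cells, against 389.7, 376 and 461 in Il13-negative cells (log2 change 0.87 ± 0.09, adjusted p = 5.24e-09). Canx, its membrane-bound relative calnexin, changed by 0.47 ± 0.14, and Pdia3, the oxidoreductase that works with both, by 0.30 ± 0.10 on the log2 scale (adjusted p = 0.00727 and 0.0209). Pdia6, another protein disulfide isomerase, had 209.7, 231 and 288 CPM in Il13+ cells, against 102, 110.0 and 122 in Il13-negative cells (log2 change 1.08 ± 0.12, adjusted p = 4.47e-08). In each mouse the Il13+ value of Pdia6 was the higher one. Sec61b, a subunit of the channel that brings nascent chains into the ER, rose by 0.40 ± 0.09. Pdia4 was not called, at 0.57 ± 0.24 (adjusted p = 0.0611).

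In the thinned cells, none of the stress transcription factor genes among the members was called as higher. Ddit3 fell in Il13+ cells, with 23.3, 16.2 and 12.3 CPM in Il13+ cells, against 31.3, 29.6 and 26.6 in Il13-negative cells (log2 change -0.77 ± 0.30, adjusted p = 0.0476). Dnajb9, the J-domain protein ERdj4 and a classical XBP1 target, also fell, with 31.5 ± 16.7 CPM in Il13+ cells and 53.0 ± 3.89 in Il13-negative cells (SD, n = 3 mice) (log2 change -0.72 ± 0.25, adjusted p = 0.0282). Xbp1 had 110.3 ± 20.5 CPM in Il13+ cells and 87.4 ± 4.49 in Il13-negative cells (SD, n = 3 mice) (log2 change 0.28 ± 0.16, adjusted p = 0.193). Atf4 had 115 ± 43.8 CPM in Il13+ cells and 114 ± 13.8 in Il13-negative cells (SD, n = 3 mice) (log2 change -0.04 ± 0.18, adjusted p = 0.897). Their groups overlapped, as did those of Atf6, Herpud1 and Sel1l, a membrane anchor of ER-associated degradation. Edem1, which marks misfolded glycoproteins for degradation, was not called at 0.42 ± 0.22. Ddit3 was scarce, and its adjusted p lay close to the limit. These results depended on the choice of cells. In the depth-matched cells described below, Xbp1 was called as higher, and the calls of Ddit3 and Dnajb9 were lost.

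Of the cytosolic side, Hspd1 rose the most among the members shown by mouse, with 258, 399 and 439 CPM in Il13+ cells, against 152, 174 and 185 in Il13-negative cells (log2 change 1.04 ± 0.11, adjusted p = 2.57e-08). Its partner subunit Hspe1 rose by 0.36 ± 0.10 on the log2 scale. Hsp90aa1, the inducible cytosolic HSP90, had 769, 1004 and 1239 CPM in Il13+ cells, against 549, 559 and 639 in Il13-negative cells (log2 change 0.73 ± 0.09, adjusted p = 2.97e-07). Hsp90ab1 had 2356, 2866 and 3181 CPM in Il13+ cells, against 1806, 2004 and 2104 in Il13-negative cells (log2 change 0.46 ± 0.07, adjusted p = 1.83e-05). The HSP90 genes were higher in Il13+ cells of all 3 mice. Hspa8 rose by 0.28 ± 0.08 and Hsph1, its nucleotide exchange factor HSP110, by 0.59 ± 0.22, whereas the J-domain genes Dnaja1 and Dnajb1 changed by -0.15 ± 0.09 and 0.05 ± 0.13 and were not called. The heat-inducible Hspa1a was not called at 0.53 ± 0.34, nor was Hsf1 at -0.67 ± 0.46.

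**Figure D2:**
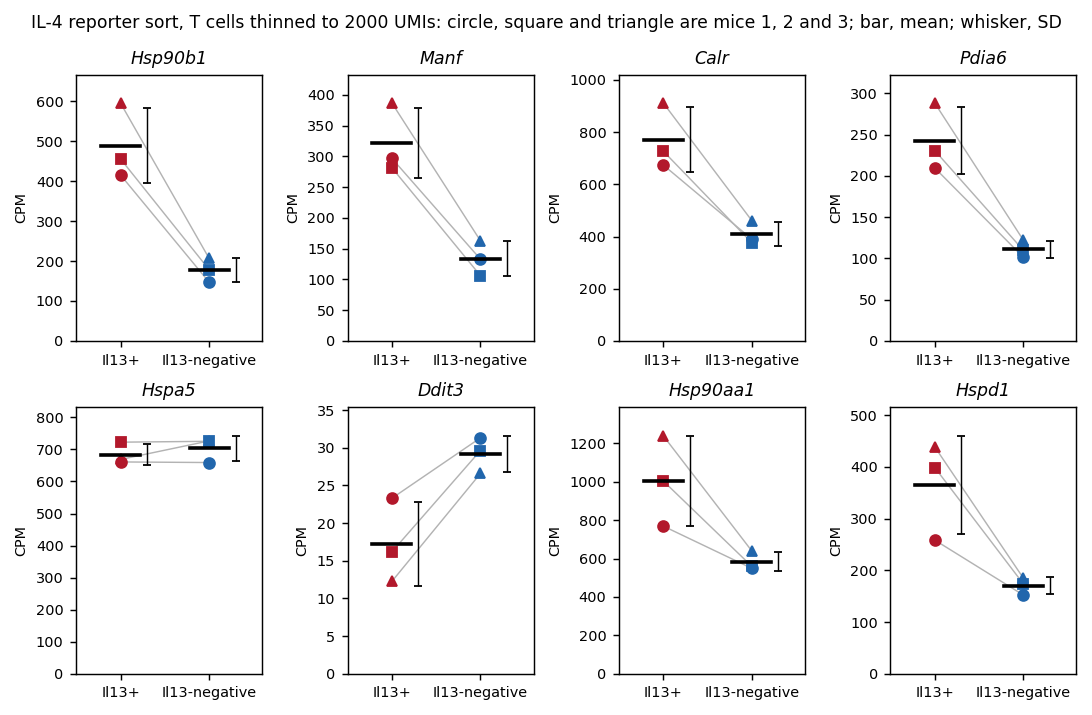
CPM (vertical axes, each from 0) of 8 members in Il13+ and Il13-negative T cells of the IL-4 reporter sort, with 1 point per mouse (circle, square and triangle for mice 1, 2 and 3), lines joining the same mouse, bars for means and whiskers for SD. Il13+ points of Hsp90b1, Manf, Calr, Pdia6, Hsp90aa1 and Hspd1 lie above all Il13-negative points, those of Ddit3 lie below them and those of Hspa5 overlap.

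Il13+ cells differed from Il13-negative cells in more than these genes. Their median UMI count was 13954 against 6230 before thinning, and 54.4% against 14.9% of them were cycling. Summed plasma cell markers were at 210.5 CPM in Il13+ cells and 171.3 in Il13-negative cells, with 2 of the 7 at 0 in each group, and summed B cell markers at 36.4 and 17.7. Other choices of cells were therefore fitted. For depth matching, the UMI counts of Il13+ cells were cut into 5 bins of equal share in each mouse. Equal numbers of Il13+ and Il13-negative cells were drawn at random from each bin, so depth can still differ within a bin. With all UMIs of these cells, 9 of the 12 ER calls were kept and 1 of the 6 cytosolic calls. The share of all called genes that stayed called is not given for this or the later choices. Such counts of kept calls therefore do not set the members apart from other genes. Hsp90b1 changed by 0.94 ± 0.08, Manf by 0.81 ± 0.09, Creld2 by 0.84 ± 0.15, Calr by 0.61 ± 0.07 and Pdia6 by 0.62 ± 0.08 on the log2 scale, all still called. Canx, Pdia3, Sdf2l1 and Sec61b were the other ER calls kept, and Ddit3 (-0.37 ± 0.19), Dnajb9 (0.19 ± 0.18) and Hyou1 (0.66 ± 0.24) were lost. Among the cytosolic members, Hsp90aa1 was kept at 0.23 ± 0.08, Hspd1 was at 0.04 ± 0.08 and Hsp90ab1 at 0.04 ± 0.06 without a call, and Hspe1 was called in the other direction at -0.26 ± 0.07 (adjusted p = 0.0181). In the depth-matched cells Hspa1a, Ddit4 and Xbp1 were called as higher, at 1.56 ± 0.20, 1.13 ± 0.20 and 0.34 ± 0.11.

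With every cell holding an Mki67 or Top2a UMI left out, 3 of the 11 ER calls that could be tested again were kept, in the 191 Il13+ cells that remained: Calr at 0.76 ± 0.13, Manf at 0.76 ± 0.22 and Hsp90b1 at 0.61 ± 0.17. No cytosolic call was kept, with Hspd1 at -0.11 ± 0.21 and Hsp90aa1 at -0.00 ± 0.12. Among cycling cells alone, a choice added after the data were seen, 5 of 8 ER calls tested again were kept (Hsp90b1 at 1.00 ± 0.14, Manf at 0.97 ± 0.16, and Calr, Pdia6 and Sdf2l1) and 5 of 6 cytosolic calls (Hspd1 at 0.75 ± 0.14, Hsp90aa1 at 0.60 ± 0.11, and Hsp90ab1, Hspe1 and Hsph1). Calr, Hsp90b1 and Manf were thus called under all 4 choices of cells. Depth before thinning still differed within cycling cells (medians per mouse of 21553 to 31491 UMIs in Il13+ cells and 9947 to 12702 in Il13-negative cells), and its part in that comparison was not tested.

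**Figure D3:**
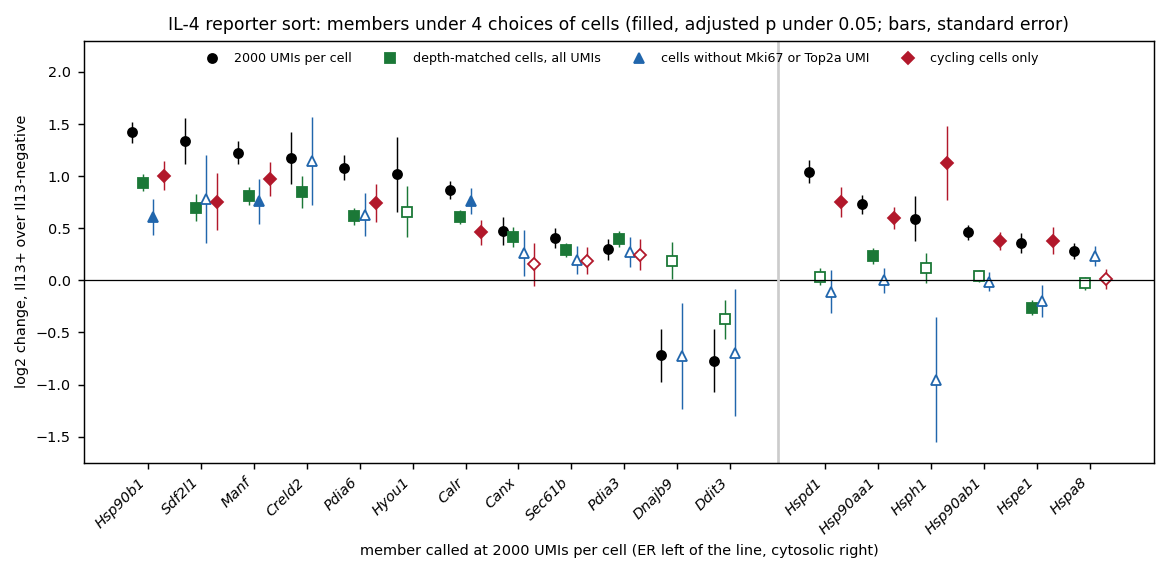
Log2 change, Il13+ over Il13-negative T cells of the IL-4 reporter sort (vertical axis), with standard errors, of the 18 called members under 4 choices of cells: 2000 UMIs per cell (circles), depth-matched cells with all UMIs (squares), cells without an Mki67 or Top2a UMI (triangles) and cycling cells only (diamonds). Filled symbols have an adjusted p under 0.05, ER members are left of the line and cytosolic members right of it. Depth matching leaves most ER members above 0 and brings Hspd1, Hsp90ab1 and Hspa8 close to 0.

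Genes that act beside the members, taken from lists chosen with earlier results of these data known, were counted in the same comparison, in which 18.0% of all genes tested were called higher and 16.9% lower. Of 26 other genes of ER folding and translocation tested, 13 rose and none fell in Il13+ cells, with Ero1l, the oxidase that recharges disulfide isomerases, at 2.40 ± 0.20, Ssr4, a subunit of the translocon-associated complex, at 0.73 ± 0.09 and the signal peptidase gene Sec11c at 0.77 ± 0.10 on the log2 scale. Of 10 other degradation genes 1 rose, Derl2 at 0.75 ± 0.19. Of 17 other genes of the integrated stress response 7 rose, among them Atf3 at 1.42 ± 0.14 and the serine synthesis gene Phgdh at 1.11 ± 0.13, and 1 fell, Ppp1r15a at -0.50 ± 0.10, which encodes the phosphatase subunit GADD34. Of 28 other cytosolic chaperones 12 rose and 1 fell, among them Hspa4 at 1.02 ± 0.12, the co-chaperone gene Stip1 at 0.98 ± 0.16 and the chaperonin subunit gene Cct8 at 0.64 ± 0.10. Of 8 other mitochondrial chaperones 2 rose, Grpel1 at 0.68 ± 0.14 and Trap1 at 0.78 ± 0.26. Of 15 genes of acute stimulation and tissue dissociation 2 rose and 3 fell, with Ier3 at 3.38 ± 0.17 and Fosb at -0.65 ± 0.08.

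Gata3+ cells of the reporter sort, 1309 against 1258 Gata3-negative cells, gave a like set of calls. Of 22 ER members 8 rose and 1 fell, and of 10 cytosolic members 5 rose and none fell, against 22.4% of all genes tested called (12.5% higher and 9.95% lower). Hsp90b1 had 284, 363 and 406 CPM in Gata3+ cells, against 146, 184 and 175 in Gata3-negative cells (log2 change 1.02 ± 0.10, adjusted p = 2.99e-10). Manf had 214, 229 and 276 CPM in Gata3+ cells, against 126, 98.6 and 129 in Gata3-negative cells (log2 change 0.98 ± 0.12, adjusted p = 3.25e-08). Sdf2l1 had 60.9, 56.5 and 72.1 CPM in Gata3+ cells, against 26.7, 30.0 and 27.2 in Gata3-negative cells (log2 change 1.15 ± 0.20, adjusted p = 2.34e-05). Each of these luminal genes was higher in Gata3+ cells of every mouse, without overlap. Calr had 604 ± 85.8 CPM in Gata3+ cells and 393 ± 18.1 in Gata3-negative cells (SD, n = 3 mice) (log2 change 0.58 ± 0.09, adjusted p = 1.54e-06), and Pdia6 had 189 ± 27.2 CPM in Gata3+ cells and 106 ± 5.37 in Gata3-negative cells (SD, n = 3 mice) (log2 change 0.80 ± 0.13, adjusted p = 4.15e-06). Canx, Creld2 and Sec61b rose by 0.39, 0.71 and 0.30 on the log2 scale. The fall was in Dnajb9, at -0.96 ± 0.20, while Hspa5 was not called at -0.10 ± 0.07.

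Hspd1 had 219.6, 320.4 and 306 CPM in Gata3+ cells, against 149, 164 and 166 in Gata3-negative cells (log2 change 0.77 ± 0.11, adjusted p = 8.84e-07). Hsp90aa1 had 808 ± 119 CPM in Gata3+ cells and 545 ± 21.6 in Gata3-negative cells (SD, n = 3 mice) (log2 change 0.52 ± 0.08, adjusted p = 2.19e-06), and Hsp90ab1 had 2523 ± 246 CPM in Gata3+ cells and 1871 ± 109 in Gata3-negative cells (SD, n = 3 mice) (log2 change 0.39 ± 0.06, adjusted p = 4.30e-06). Hspa8 and Hspe1 rose by 0.25 and 0.32. Gata3+ cells were deeper before thinning (medians of 10227 and 5512 UMIs) and more often cycling (41.7% and 9.80%). In depth-matched cells Hsp90b1, Manf, Calr, Canx and Pdia6 kept their calls, 5 of 9 ER calls, and none of 5 cytosolic calls was kept, with Hspd1 at 0.05 ± 0.08 and Hsp90aa1 at 0.06 ± 0.05. Without cells holding an Mki67 or Top2a UMI, Calr (0.38 ± 0.10) and Manf (0.62 ± 0.17) were kept and no cytosolic call. Without mouse 3 the count of called members was 8, against 14 with it. Of the other ER folding genes 10 of 25 rose and 1 fell, with Ssr4 at 0.64 ± 0.09, and of other cytosolic chaperones 10 of 28 rose and none fell.

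Il4+ cells of the reporter sort, 406 against 2354 Il4-negative cells, had 8 called members, all higher: Calr, Hsp90b1, Manf, Pdia6 and Sec61b of 22 ER members, and Hspd1, Hspa8 and Hsp90aa1 of 9 cytosolic members, against 8.90% of all genes tested called (5.36% higher and 3.54% lower). Hsp90b1 had 390.2, 303 and 362 CPM in Il4+ cells, against 176, 219.8 and 239.7 in Il4-negative cells (log2 change 0.71 ± 0.12, adjusted p = 7.37e-04). Manf had 239.8, 275 and 238 CPM in Il4+ cells, against 149, 128 and 177 in Il4-negative cells (log2 change 0.71 ± 0.14, adjusted p = 0.00211). Calr had 553, 644 and 702 CPM in Il4+ cells, against 417, 403 and 469.7 in Il4-negative cells (log2 change 0.54 ± 0.09, adjusted p = 3.21e-04). The Il4+ and Il4-negative values of these 3 genes did not overlap. Pdia6 changed by 0.57 ± 0.15, Sec61b by 0.35 ± 0.09, Hspd1 by 0.48 ± 0.12, Hsp90aa1 by 0.29 ± 0.08 and Hspa8 by 0.22 ± 0.06 on the log2 scale. Hspa5 was at 0.03 ± 0.08 and Xbp1 at 0.12 ± 0.19, neither called. Median depth was 11654 UMIs in Il4+ cells and 6213.5 in Il4-negative cells, and 44.2% and 17.1% were cycling. In depth-matched cells Hsp90b1 (0.31 ± 0.08) and Manf (0.32 ± 0.07) kept their calls and none of the cytosolic members did. No call was kept without cells holding an Mki67 or Top2a UMI, nor among cycling cells alone. When Il4+ cells were called on thinned counts, the 8 changes turned negative, from -0.14 for Calr to -1.06 for Manf, and Hspa8 was called as lower at -0.98. Leaving out mouse 2 left 2 called members and leaving out mouse 3 left 5.

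Il21+ cells of the reporter sort, 1064 against 1889 Il21-negative cells, had 1 called member of 32, Hsp90ab1, with 2102, 2545 and 2409.9 CPM in Il21+ cells, against 1871, 2132 and 2219.7 in Il21-negative cells (log2 change 0.17 ± 0.05, adjusted p = 0.0467), against 5.12% of all genes tested called (3.24% higher and 1.88% lower). The values overlapped between groups although each mouse was higher in its Il21+ cells. The call was lost without mouse 2 or without mouse 3, without the mouse as a block (adjusted p = 0.390), and in depth-matched cells. Hsp90b1 was at 0.13 ± 0.09, Calr at 0.17 ± 0.08, Manf at 0.17 ± 0.10 and Hspa5 at 0.17 ± 0.07, none of them called. Depth and cycling differed less here, at 7796 and 6143.5 UMIs and 28.0% and 19.8% cycling in Il21+ and Il21-negative cells. Of the other ER folding genes 1 rose, Ssr4 at 0.46 ± 0.08.

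In the Tfh sort the same states gave almost no called members. Il13+ cells were few, 25, 32 and 11 per mouse at depth, and none of 29 members tested was called by edgeR, with 2.00% of all genes tested called (1.25% higher and 0.750% lower). At an unadjusted p under 0.05 there were 3 members (Hsp90b1, Hspa8 and Hsp90aa1), and DESeq2 called 0. Hsp90b1 had 260.0, 391 and 182 CPM in Il13+ cells, against 178, 174 and 170.1 in Il13-negative cells (log2 change 0.66 ± 0.27, adjusted p = 0.273). All 3 Il13+ values were above the Il13-negative ones. Manf had 256 ± 59.3 CPM in Il13+ cells and 173 ± 22.9 in Il13-negative cells (SD, n = 3 mice) (log2 change 0.41 ± 0.29, adjusted p = 0.786), and Hspa8 had 2188 ± 306 CPM in Il13+ cells and 2669.8 ± 131 in Il13-negative cells (SD, n = 3 mice) (log2 change -0.42 ± 0.14, adjusted p = 0.11). In depth-matched cells with all UMIs, Hsp90b1 (1.11 ± 0.25) and Manf (0.97 ± 0.24) were called as higher in Il13+ cells. The neighbouring ER genes Ssr4 (0.94 ± 0.22) and Ero1l (1.95 ± 0.51) rose, 2 of 24 tested. Without mouse 3, the mouse with 11 such cells, 2 members were called, and 1 without the mouse as a block.

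Il4+ cells of the Tfh sort, 1015 against 1057 Il4-negative cells, had none of 30 members called, with 2.67% of all genes tested called (0.957% higher and 1.71% lower). At an unadjusted p under 0.05 there were 4 members (Sdf2l1, Creld2, Pdia6 and Hspa8), and DESeq2 called 0. The lowest adjusted p belonged to Sdf2l1, with 72.8, 86.9 and 99.1 CPM in Il4+ cells, against 54.2, 54.3 and 63.6 in Il4-negative cells (log2 change 0.55 ± 0.17, adjusted p = 0.0891). Hsp90b1 changed by -0.01 ± 0.11, Hspa5 by 0.05 ± 0.05 and Hsp90ab1 by -0.08 ± 0.05 on the log2 scale. In Il21+ cells, 850 against 1023 Il21-negative cells, Ddit4, a stress-induced inhibitor of mTORC1 also called REDD1, was the only called member of 30 and fell, with 10.9, 18.0 and 20.6 CPM in Il21+ cells, against 49.0, 29.3 and 49.6 in Il21-negative cells (log2 change -1.34 ± 0.31, adjusted p = 0.0163), against 1.54% of all genes tested called (1.04% higher and 0.495% lower). Its call was lost without mouse 1 and in another draw of the thinning (adjusted p = 0.0741), while 2 members were called without mouse 3. Gata3+ cells, 265 against 1722 Gata3-negative cells, had 1 called member of 28, Hspa5, which fell, with 1126, 1274 and 1046 CPM in Gata3+ cells, against 1312, 1471 and 1324 in Gata3-negative cells (log2 change -0.30 ± 0.07, adjusted p = 0.00522), against 5.09% of all genes tested called (2.72% higher and 2.37% lower). The 3 Gata3+ values were below the 3 Gata3-negative values. That call was lost in depth-matched cells (-0.05 ± 0.07) and without cells holding an Mki67 or Top2a UMI (-0.19 ± 0.09), and cycling cells made up 32.5% of Gata3+ and 7.30% of Gata3-negative cells. Without mouse 2 the count was 2.

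Among the ER members, as among all genes tested, calls in cycling against non-cycling T cells went in both directions. In the reporter sort, 801 cycling against 1963 non-cycling cells, 9 of 22 ER members rose and 4 fell, and 6 of 10 cytosolic members rose and none fell, against 38.9% of all genes tested called (20.5% higher and 18.4% lower). Hsp90b1 had 369.7, 448 and 507 CPM in cycling cells, against 144, 169.6 and 189.9 in non-cycling cells (log2 change 1.35 ± 0.09, adjusted p = 1.09e-40). Sdf2l1 had 84.0, 84.3 and 99.7 CPM in cycling cells, against 21.0, 30.2 and 26.7 in non-cycling cells (log2 change 1.74 ± 0.19, adjusted p = 2.72e-17). Manf had 269.9 ± 35.5 CPM in cycling cells and 129.7 ± 21.0 in non-cycling cells (SD, n = 3 mice) (log2 change 1.01 ± 0.11, adjusted p = 1.82e-18). These luminal genes were higher in cycling cells of every mouse. Pdia6 had 221 ± 37.7 CPM in cycling cells and 108 ± 5.55 in non-cycling cells (SD, n = 3 mice) (log2 change 0.99 ± 0.12, adjusted p = 1.89e-15) and Calr 695 ± 65.2 CPM in cycling cells and 401 ± 52.8 in non-cycling cells (SD, n = 3 mice) (log2 change 0.75 ± 0.08, adjusted p = 2.56e-19), while Canx, Creld2, Pdia4 and Sec61b rose by 0.45 to 0.67 on the log2 scale. Hspa5 went the other way, with 513, 661 and 557 CPM in cycling cells, against 701, 738 and 761 in non-cycling cells (log2 change -0.40 ± 0.08, adjusted p = 1.57e-06). Dnajb9 fell by -1.23 ± 0.23, Ddit3 by -0.76 ± 0.30 and Herpud1, a membrane organiser of ER-associated degradation, by -0.63 ± 0.17 as signed log2 changes.

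Hspd1 had 311, 444 and 383 CPM in cycling cells, against 138, 147 and 158 in non-cycling cells (log2 change 1.30 ± 0.10, adjusted p = 6.26e-35). Hsp90aa1 had 908, 1109 and 1221 CPM in cycling cells, against 482, 525 and 560.5 in non-cycling cells (log2 change 1.00 ± 0.07, adjusted p = 6.28e-38). Hsp90ab1 had 2945 ± 221 CPM in cycling cells and 1872 ± 154 in non-cycling cells (SD, n = 3 mice) (log2 change 0.61 ± 0.06, adjusted p = 1.34e-20), and Hspe1, Hspa8 and Hsph1 also rose. The chaperonin and both HSP90 genes did not overlap between the states. Cycling cells were deeper (medians of 15882 and 5866 UMIs). In depth-matched cells Calr, Canx, Hsp90b1 (0.76 ± 0.08), Manf, Pdia6 and Sdf2l1 kept their calls, 6 of 13 ER calls, and Hsp90aa1 (0.33 ± 0.07) was the cytosolic call kept of 6, with Hspd1 at -0.04 ± 0.09. The falls of Hspa5, Dnajb9, Ddit3 and Herpud1 were not called in matched cells, with Hspa5 at -0.11 ± 0.07. Acute stimulation genes were lower in cycling cells, 13 of 15 tested, with Zfp36 at -0.86 ± 0.08, and their part in the members' values was not tested. Of 28 other cytosolic chaperones 13 rose and 2 fell, with Tcp1 at 0.83 ± 0.11.

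In the Tfh sort, 334 cycling against 1912 non-cycling cells, 3 of 19 ER members rose and 4 fell, and 3 of 10 cytosolic members rose and 2 fell, against 31.3% of all genes tested called (16.5% higher and 14.7% lower). Hspa5 and Xbp1 were among the members that fell. Hspa5 had 927, 1132 and 833 CPM in cycling cells, against 1313, 1488 and 1318 in non-cycling cells (log2 change -0.56 ± 0.06, adjusted p = 2.29e-14). Xbp1 had 107, 99.3 and 160.5 CPM in cycling cells, against 185, 217 and 187 in non-cycling cells (log2 change -0.83 ± 0.16, adjusted p = 9.73e-06). Both were lower in cycling cells of all 3 mice. Dnajb9 changed by -0.80 ± 0.20, Herpud1 by -0.70 ± 0.18, Dnajb1, the heat-inducible HSP40, by -0.70 ± 0.13 and Dnaja1, another HSP40, by -0.46 ± 0.09 on the log2 scale. Hsp90aa1 rose, with 808, 750.0 and 722 CPM in cycling cells, against 543, 507 and 472 in non-cycling cells (log2 change 0.51 ± 0.08, adjusted p = 2.25e-08). Hspd1 rose by 0.51 ± 0.13, Creld2 by 0.93 ± 0.24, Sdf2l1 by 0.71 ± 0.21, Manf by 0.40 ± 0.14 and Hspa8 by 0.16 ± 0.05. Hsp90b1 was at 0.10 ± 0.14 and not called. In depth-matched cells the falls of Hspa5 (-0.24 ± 0.09), Xbp1, Herpud1 and Dnaja1 were kept and none of the rises was, and 8 members were called there, all lower. Without mouse 2 the count was 7, against 12 with it. Of the 15 acute stimulation genes 13 fell here too, with Btg2 at -1.21 ± 0.08.

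Whether a state's difference itself differed between the sorts was tested as an interaction of state and sort. The values are log2 changes in the reporter sort minus those in the Tfh sort, and sort, strain, chemistry and sequencer cannot be told apart in them. For Il13+ against Il13-negative cells 7 of 32 members were called, all positive, against 2.45% of all genes tested called (2.07% higher and 0.380% lower): Hsp90aa1 at 1.41 ± 0.23, Hspd1 at 1.62 ± 0.33, Hspa8 at 0.77 ± 0.16, Hsp90ab1 at 0.80 ± 0.18, Pdia6 at 1.25 ± 0.31, Hspe1 at 0.96 ± 0.29 and Calr at 0.76 ± 0.23. All of these but Calr exceed the member's log2 change within the reporter sort. The parts of the Tfh sort and of the scaling of the joint fit in this excess were not tested. In the Tfh sort Il13+ cells numbered 25, 32 and 11 per mouse and none of these members was called. The cytosolic members summed to 5418 ± 355.0 CPM in those cells and 6048 ± 355.8 in Il13-negative cells. Hsp90b1 (log2 change 0.83 ± 0.26, adjusted p = 0.053) and Manf (log2 change 0.91 ± 0.28, adjusted p = 0.0524) were not called in the interaction. The median over all genes was 0.29 and became 0.07 with another scaling (RLE), under which 5 members were called. For cycling against non-cycling cells 13 of 32 members were called, all positive, against 4.25% of all genes tested called (3.58% higher and 0.675% lower), with Hsp90b1 at 1.32 ± 0.17, Sdf2l1 at 1.10 ± 0.27, Xbp1 at 0.99 ± 0.23, Hspd1 at 0.86 ± 0.16 and Hsp90ab1 at 0.73 ± 0.08. For Xbp1 and Dnajb1 (0.62 ± 0.19) this was a fall in the Tfh sort that was not called in the reporter sort. For Il4+ against Il4-negative cells 4 of 32 were called, all positive, against 2.26% of all genes tested called (1.68% higher and 0.587% lower): Hspa8, Hsp90b1 (0.73 ± 0.16), Calr and Hspd1. In depth-matched cells the calls kept were 0 of 7, 1 of 13 (Pdia6) and 0 of 4, for Il13, cycling and Il4. Leaving out a mouse of each sort gave 5 to 7 called members for Il13, 7 to 10 for cycling (7 without the mice numbered 3) and 0 or 1 for Il4, and without the mouse as a block 1 was called for Il4.

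B cells held more Ddit3, Atf4 and Dnajb9 transcripts than T cells in both sorts. In the reporter sort, with 232 B cells, 6 of 22 ER members rose and 2 fell, and of 10 cytosolic members 1 fell, against 18.3% of all genes tested called (9.56% higher and 8.71% lower). Ddit3 had 80.9, 118 and 57.5 CPM in B cells, against 28.7, 26.1 and 24.6 in T cells (log2 change 1.77 ± 0.32, adjusted p = 3.69e-06). Atf4 had 228, 225 and 195 CPM in B cells, against 104, 113 and 127 in T cells (log2 change 1.07 ± 0.20, adjusted p = 8.24e-06). Dnajb9 had 110.3, 78.4 and 79.6 CPM in B cells, against 49.4, 50.7 and 50.4 in T cells (log2 change 1.01 ± 0.29, adjusted p = 0.00618). All 3 genes were higher in B cells of every mouse, without overlap. Calr (0.43 ± 0.12), Pdia6 (0.57 ± 0.21) and Herpud1 (0.69 ± 0.25) also rose, and Dnajc3 (-0.80 ± 0.24), the ER-resident inhibitor of PERK called P58IPK, Pdia3 (-0.60 ± 0.19) and Hspa8 (-0.26 ± 0.10) fell. Without mouse 1 there were 3 called members, and 5 without mouse 3. With a mitochondrial limit of 5% in place of 10% none was called, and Atf4 changed by 0.08 ± 0.69 on the log2 scale. Without B cells holding a Cd3 UMI, Ddit3, Atf4, Dnajc3, Pdia3 and Hspa8 kept their calls. Dnajb9 (log2 change 1.05 ± 0.40, adjusted p = 0.0542), Calr, Pdia6 and Herpud1 lost theirs. Hsp90ab1 (-0.51 ± 0.11), Hspd1 (-1.05 ± 0.31) and Dnaja1 (-0.54 ± 0.20) were then called as lower.

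In the Tfh sort, with 346 B cells, 9 of 21 ER members rose and 3 fell, and 3 of 10 cytosolic members rose and 2 fell, against 34.4% of all genes tested called (19.3% higher and 15.1% lower). Ddit3 had 68.7, 94.8 and 75.8 CPM in B cells, against 20.7, 21.4 and 29.5 in T cells (log2 change 1.97 ± 0.27, adjusted p = 1.30e-11). Atf4 had 313, 263 and 293 CPM in B cells, against 106, 109 and 109 in T cells (log2 change 1.62 ± 0.15, adjusted p = 1.23e-24). Dnajb9 had 359, 276 and 253 CPM in B cells, against 121, 113 and 106 in T cells (log2 change 1.60 ± 0.14, adjusted p = 1.35e-24). These are the genes that also led in the reporter sort, with the B cells again above the T cells in every mouse. Atf6 rose by 1.39 ± 0.46, Hsp90b1 by 0.63 ± 0.14, Canx by 0.58 ± 0.16, Herpud1 by 0.58 ± 0.16, Pdia6 by 0.39 ± 0.15 and Calr by 0.35 ± 0.11. Dnajc3 had 78.9 ± 7.76 CPM in B cells and 169 ± 7.55 in T cells (SD, n = 3 mice) (log2 change -0.88 ± 0.20, adjusted p = 5.28e-05), and Pdia3 and Sec61b fell by -0.49 ± 0.12 and -0.30 ± 0.12 as signed log2 changes. Hspa5 was not called, with 1248, 1306 and 1268 CPM in B cells, against 1258, 1428 and 1261 in T cells (log2 change 0.15 ± 0.07, adjusted p = 0.0583).

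The largest log2 change of a member between Tfh-sort B and T cells was in Hspa1a, with 351, 47.4 and 237 CPM in B cells, against 47.9, 16.8 and 25.0 in T cells (log2 change 2.94 ± 0.22, adjusted p = 2.38e-34). B cells of mice 1 and 3 were far above the T cells, while the B cells of mouse 2 lay within the T cells' range. Few cells carried these values. An Hspa1a UMI was held by 6.31 ± 2.56% of thinned B cells and 3.82 ± 1.30% of T cells (SD, n = 3 mice). The variance of its UMIs per B cell was 4.21 to 18.6 times the mean, by mouse, so most B cells gave none. In the reporter sort Hspa1a had 7.35, 0 and 57.5 CPM in B cells, against 9.71, 10.2 and 31.9 in T cells (log2 change 0.73 ± 0.47, adjusted p = 0.32). Hspe1 rose by 0.43 ± 0.12 and Hsp90aa1 by 0.29 ± 0.10, whereas Dnaja1 changed by -0.56 ± 0.11 and Hspa8 by -0.24 ± 0.06. In depth-matched cells all 16 calls that could be tested again were kept. Without B cells holding a Cd3 UMI 13 of 17 were kept, among them Hspa1a at 3.02 ± 0.27, and Calr, Herpud1, Pdia6 and Hspe1 were lost. Acute stimulation genes differed as well, with 9 of 15 higher and 5 lower in B cells of the Tfh sort and 9 higher and 3 lower in those of the reporter sort, and Ppp1r15a was higher in both, at 1.56 ± 0.08 and 1.39 ± 0.12. Their part in the rise of Ddit3 and Atf4 was not tested.

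Plasma-like cells of the Tfh sort, 9, 6 and 6 per mouse, held more transcripts of ER chaperone, disulfide isomerase and degradation genes than B cells. Their 7 plasma cell markers summed to 28214 CPM, against 835.3 in B cells, and 1 of the 7 was at 0. Cycling markers summed to 2167 CPM in plasma-like cells and 825.1 in B cells, and in the reporter sort to 4900 and 1032. Most plasma-like cells also held a Cd3 UMI, as given above. The part of cycling or of T cell RNA in the differences was not tested. Of 17 ER members tested against B cells 11 rose and none fell, and none of 7 cytosolic members was called, against 11.7% of all genes tested called (5.46% higher and 6.28% lower). The count minimum, at this few cells 92.6 CPM in 3 of the sums, sets part of that count. The calls of Dnajc3, Sdf2l1, Creld2, Pdia4 and Edem1 are of genes that passed it only through the plasma-like cells in which they were high, and 14 members were not tested, among them Ddit3 and Hspa1a. Of the 12 ER members that the B cells alone carried past the minimum, Hsp90b1, Herpud1, Manf, Pdia6, Calr and Sec61b were called.

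Hsp90b1 had 4000.0, 2500.0 and 3833 CPM in plasma-like cells, against 240.5, 241 and 237 in B cells (log2 change 3.98 ± 0.27, adjusted p = 1.91e-05). Creld2 had 1056, 583 and 333 CPM in plasma-like cells, against 26.7, 34.5 and 25.3 in B cells (log2 change 4.73 ± 0.54, adjusted p = 6.45e-04). Pdia4, a disulfide isomerase with 3 catalytic domains, had 389, 250.0 and 167 CPM in plasma-like cells, against 22.9, 4.31 and 10.1 in B cells (log2 change 4.55 ± 0.53, adjusted p = 6.45e-04). Every plasma-like value of Hsp90b1 was above every B cell value. Creld2 and Pdia4, like Sdf2l1, Edem1 and Dnajc3, passed the count minimum only through plasma-like cells. They were tested because they were high there, so their calls and their lack of overlap add no support. Manf had 2778, 1083 and 917 CPM in plasma-like cells, against 160.3, 164 and 212 in B cells (log2 change 3.28 ± 0.46, adjusted p = 0.00178). Sdf2l1 had 1278, 833 and 250.0 CPM in plasma-like cells, against 49.6, 99.1 and 45.5 in B cells (log2 change 3.75 ± 0.59, adjusted p = 0.00321). Edem1 had 944, 583 and 667 CPM in plasma-like cells, against 22.9, 73.3 and 60.6 in B cells (log2 change 4.03 ± 0.60, adjusted p = 0.00227). The values of Edem1 did not overlap between the groups either, under the same limit. Pdia6 rose by 2.33 ± 0.35 and Calr by 1.79 ± 0.27, and the remaining calls were Dnajc3 at 2.73 ± 0.47, Herpud1 at 2.08 ± 0.48 and Sec61b at 1.60 ± 0.37 on the log2 scale.

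Hspa5 had 4722, 1250.0 and 1583 CPM in plasma-like cells, against 1248, 1306 and 1268 in B cells (log2 change 1.06 ± 0.42, adjusted p = 0.116). Mouse 1 was high and mice 2 and 3 lay near the B cells. Xbp1, which drives the plasma cell secretory programme, had 944, 167 and 333 CPM in plasma-like cells, against 122, 125 and 162 in B cells (log2 change 2.02 ± 0.64, adjusted p = 0.0689), above B cells in all 3 mice without passing the test. Among the cytosolic members, Hspa8 had 1111, 2417 and 1750.0 CPM in plasma-like cells, against 1996, 2013 and 1848 in B cells (log2 change -0.08 ± 0.21, adjusted p = 0.837), and Hsp90ab1 had 667, 1583 and 1250.0 CPM in plasma-like cells, against 1141, 1125 and 1146 in B cells (log2 change 0.10 ± 0.25, adjusted p = 0.838). Their plasma-like values spread on both sides of the B cells. Atf4 was at -0.87 ± 0.65 and not called, and Ddit3 and Hspa1a gave 0 UMIs in the thinned plasma-like cells. Without mouse 2 the count of called members was 3, against 11 with all mice and 8 without either of the others. Acute stimulation genes were lower, at 4833 summed CPM in plasma-like cells and 18947 in B cells, with Fos at -2.28 ± 0.31, and their part was not tested. Of 15 other ER folding genes 11 rose and none fell, with Txndc5, a plasma cell disulfide isomerase, at 3.80 ± 0.49, Sec11c at 2.88 ± 0.48 and Spcs1 at 2.95 ± 0.50, while none of 18 other cytosolic chaperones was called, and these counts are likewise set in part by the count minimum.

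**Figure D4:**
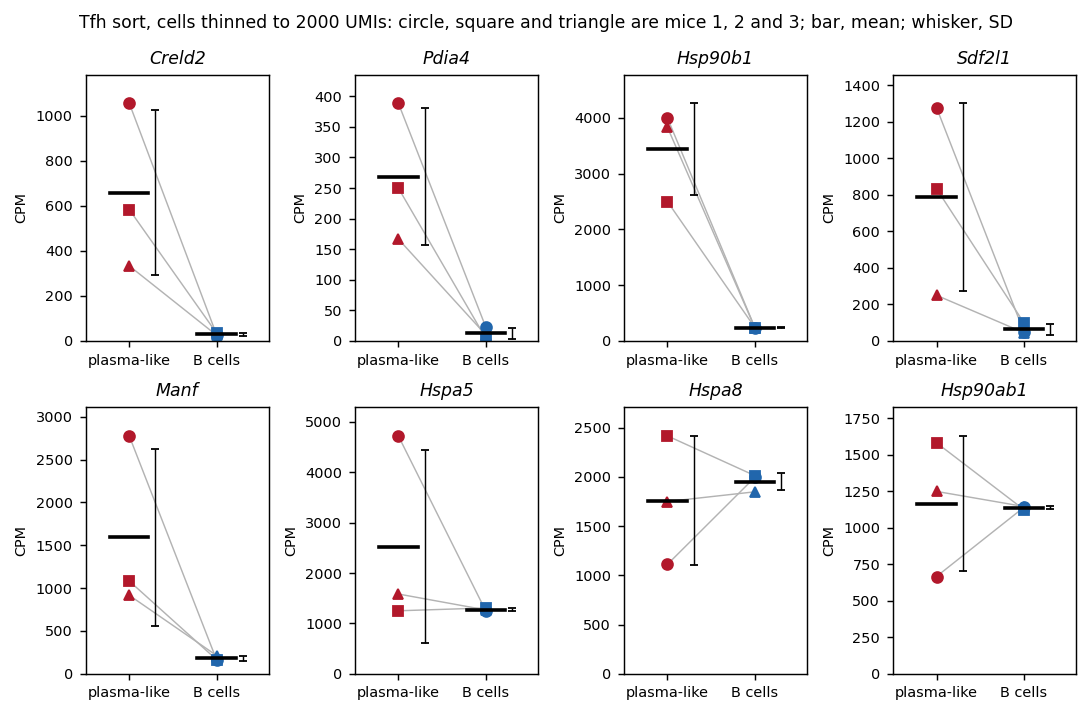
CPM (vertical axes, each from 0) of 8 members in plasma-like cells and B cells of the Tfh sort, with 1 point per mouse (circle, square and triangle for mice 1, 2 and 3), lines joining the same mouse, bars for means and whiskers for SD. Creld2, Pdia4, Hsp90b1, Sdf2l1 and Manf are higher in plasma-like cells of every mouse, Hspa5 is high in mouse 1, and Hspa8 and Hsp90ab1 go both ways. Creld2, Pdia4 and Sdf2l1 passed the count minimum only through plasma-like cells.

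In the reporter sort plasma-like cells numbered 3, 1 and 11 per mouse, so only mouse 3 gave a sum and nothing was tested. There Hsp90b1 was at 2864 CPM in plasma-like cells (63 UMIs, exact Poisson 95% interval 2200.5 to 3664), against 314.2 (245.4 to 396.3) in B cells of the same mouse. Manf was at 1182 (772.0 to 1732) in plasma-like cells and 132.7 (89.6 to 189.5) in B cells, and Calr at 1864 (1337 to 2528) and 566.4 (472.5 to 673.4). These intervals cover counting error only and leave out the spread between cells, so they are too narrow for a level in such cells. The variance of Hsp90b1 UMIs per plasma-like cell was at least 10.1 times the mean in each mouse where it could be computed. Hspa5 was at 1091 (699.0 to 1623) in plasma-like cells and 668.1 (565.8 to 783.6) in B cells, with overlapping intervals, and Hspa8 at 1591 (1108 to 2213) and 1434 (1282 to 1599). Of other cytosolic members, Hsp90aa1 was at 1409 (957.4 to 2000) and 646.0 (545.5 to 759.7). The variance of its UMIs per plasma-like cell was 1.55 to 3.5 times the mean, by mouse where it could be computed. The gap between its 2 intervals is thus no test of a difference. Hsp90ab1 was at 2318 (1726 to 3048) and 1796 (1626 to 1980), with overlap. In the Tfh sort too Hsp90b1 and Manf were well apart and Hspa8 was not. Hsp90aa1 was not called there (log2 change 0.56 ± 0.35, adjusted p = 0.321).

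Summed over the cells of a mouse, the ER members were highest in plasma-like cells in each mouse with 5 or more of them. In the Tfh sort they summed to 15935 ± 5491 CPM in plasma-like cells and 4362 ± 93.9 in B cells (SD, n = 3 mice), and T cells were at 4236 ± 107.7. In the reporter sort the sum was 12500.0 in the plasma-like cells of mouse 3, 3416 ± 56.6 in B cells and 3321 ± 171.5 in T cells, and among T cells 4386 ± 407.2 in Il13+ and 3058 ± 189.1 in Il13-negative cells. The cytosolic members summed to 5056 ± 2277 in plasma-like cells and 5023 ± 404.3 in B cells of the Tfh sort. In mouse 3 of the reporter sort they summed to 7045 in plasma-like cells and 5221 in B cells. In T cells of the reporter sort they summed to 7072 ± 1141 in Il13+ and 5151 ± 384.7 in Il13-negative cells, and to 7354 ± 775.6 in cycling and 4885 ± 277.6 in non-cycling cells. Single cells spread widely. In the Tfh sort the 5th percentile, median and 95th percentile were 7, 28 and 68 ER UMIs per thinned plasma-like cell. In B cells they were 3, 8 and 16.75. In mouse 3 of the reporter sort they were 5, 11 and 75.5 in plasma-like cells and 2, 6 and 16 in B cells. The 1 plasma-like cell of mouse 2 there was at 2000 CPM, with B cells of that mouse at 3402. Each sum is led by a few abundant genes and was not tested.

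**Figure D5:**
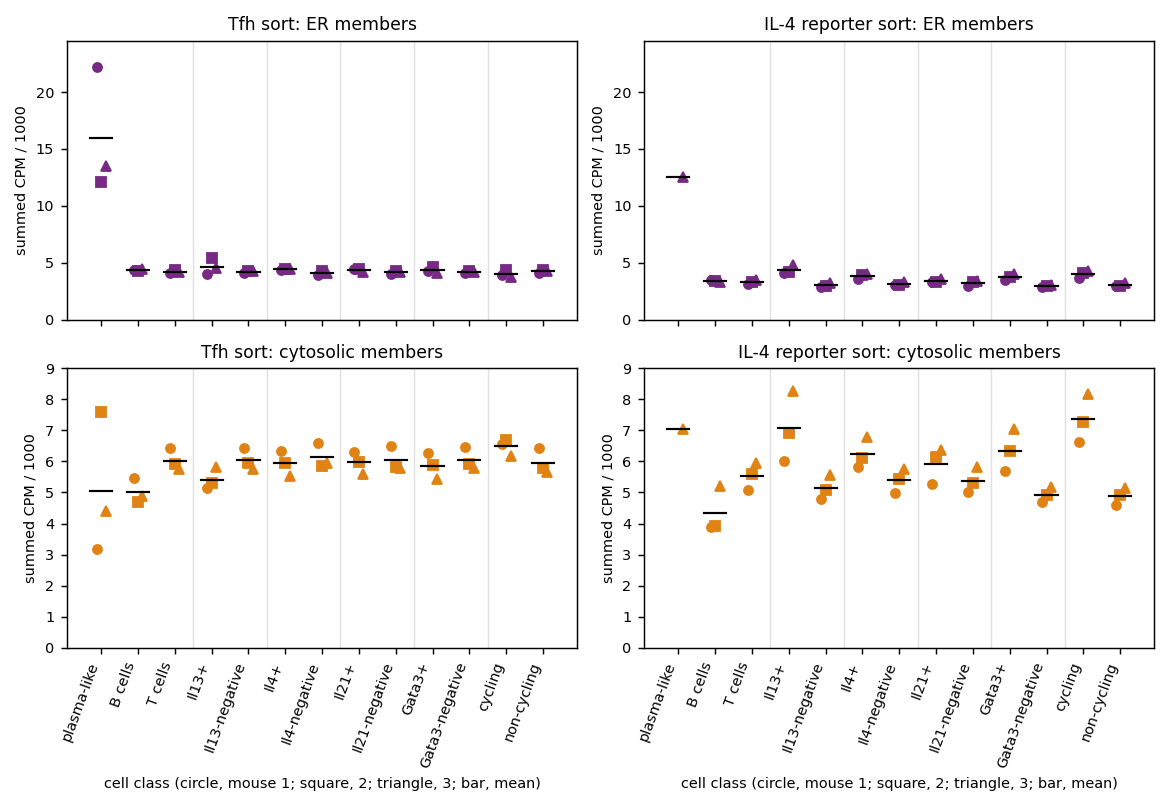
Summed CPM, divided by 1000 (vertical axes from 0), of the 26 ER members (top) and 12 cytosolic members (bottom) in each class of cells (horizontal axis) of the Tfh sort (left) and the IL-4 reporter sort (right), with 1 point per mouse and bars for means, and with mice under 5 cells of a class left out. ER sums are highest in plasma-like cells, and in the reporter sort the cytosolic sums of Il13+, Il4+, Il21+, Gata3+ and cycling cells lie above those of the matching negative cells in each mouse.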

How the data were processed

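Single-cell 3′ RNA libraries of both sorts were deposited by the authors as raw UMI counts per gene and barcode, with hashtag antibody counts for the mouse of each cell. Alignment used Cell Ranger 2.2.0 and the mm10 or GRCm38 build, per the submitters' processing notes, while the header of the reporter matrix names Cell Ranger 3.0.2. Chemistry, strain and sequencer are per the labels. How reads of near-identical genes were shared is not given in the sources used here.

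Cells were kept with 500 or more genes, at most 10% mitochondrial UMIs, and a hashtag of 10 or more counts at 3 times the next, which also removes doublets between mice but not within a mouse; no doublet caller was run. The labels name hashtags by number, and 3 of them, 1 per mouse, carry the cells used. Each cell was thinned to 2000 UMIs (seed 1), and counts were summed per mouse and group with 5 or more cells. The replicate is the mouse. Both groups of a comparison within a sort come from the same mice, so the mouse was a block, and mouse numbers are not shared between sorts. edgeR 4.0.16 (TMM, a count minimum of 10 in filterByExpr, quasi-likelihood test, Benjamini-Hochberg over all genes) gave the calls, in R 4.3.3, and DESeq2 1.42.0 was an alternative. The standard error of a log2 change is its size divided by the square root of F. Counting used Python 3.11.15 with pandas 2.3.3 and scipy 1.17.1. The fit was also run on simulated counts of fixed dispersion and without mouse effects. That setting is simpler than these data, and no result here rests on it.

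The members, the gene lists and the comparisons were chosen with earlier results of these data known. Values per mouse or per group are given for up to 8 called members of lowest adjusted p in a comparison, and others only as log2 changes, with Hspa5, Xbp1, Atf4 and a few uncalled members named for their roles. Alternatives were the normalization, the count filter, the thinning, depth matching, cycling cells left out, states called on thinned counts, a 5% mitochondrial limit, the mouse block and each mouse left out. Plasma-like cells of the reporter sort were not tested, since 1 mouse had 5 or more.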

Additional observations from a re-analysis of the deposited data

Results flagged for a closer look

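The difference between a state and its negative cells was more positive in the reporter sort than in the Tfh sort for 24 combinations of member and state, by edgeR's test of the interaction (adjusted p under 0.05 over all genes); values are log2 changes in the reporter sort minus those in the Tfh sort. For Il13+ cells they were Pdia6 1.25, Calr 0.76, Hspa8 0.77, Hsp90aa1 1.41, Hsp90ab1 0.8, Hspd1 1.62 and Hspe1 0.96. For Il4+ cells they were Hsp90b1 0.73, Calr 0.51, Hspa8 0.33 and Hspd1 0.61. For cycling cells they were Hsp90b1 1.32, Xbp1 0.99, Sdf2l1 1.1, Manf 0.68, Pdia6 0.77, Calr 0.57, Sec61b 0.51, Hspa8 0.27, Hsp90aa1 0.55, Hsp90ab1 0.73, Hspd1 0.86, Hspe1 0.69 and Dnajb1 0.62. All are positive. In depth-matched cells with all UMIs the call was kept for Pdia6 in cycling cells and for no other of the 24. Strain, chemistry, sequencer and gate differ together between the sorts and cannot be told apart.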

How the results depend on the processing

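Both groups of each within-sort comparison come from the same mice, so the replicate block stood in the reported fit. Without it the counts of called members stayed within 1.5 times of those reported except as given here. Counts that moved by more than that are listed with the setting. The share of all genes called under each alternative is not given beside them, so they describe the members only. Il13+ cells of the reporter sort had 18 called members, against 11 with DESeq2, 11 with states called on thinned counts, 3 without cells holding an Mki67 or Top2a UMI and 10 among cycling cells, and 12 to 17 with 1 mouse left out. Gata3+ cells of the reporter sort had 14 called members, against 9 with DESeq2, 26 with all UMIs, 4 with states called on thinned counts, 9 in depth-matched cells, 9 with the 5% mitochondrial limit, 2 without cells holding an Mki67 or Top2a UMI and 5 among cycling cells, and 8 to 14 with 1 mouse left out. Il4+ cells of the reporter sort had 8 called members, against 4 with DESeq2, 5 without the count filter, 19 with all UMIs, 3 when thinned to 1000 UMIs, 2 with states called on thinned counts, 4 in depth-matched cells, 2 with the 5% mitochondrial limit, 0 without cells holding an Mki67 or Top2a UMI and 0 among cycling cells, and 2 to 8 with 1 mouse left out. Il21+ cells of the reporter sort had 1 called member, against 0 with DESeq2, 0 without the count filter, 0 without the replicate block, 3 with all UMIs, 0 when thinned to 1000 UMIs, 2 with states called on thinned counts, 3 in depth-matched cells, 0 with the 5% mitochondrial limit and 0 among cycling cells, and 0 to 1 with 1 mouse left out. Cycling cells of the reporter sort had 19 called members, against 9 in depth-matched cells, and 16 to 18 with 1 mouse left out. B cells of the reporter sort had 9 called members, against 2 with DESeq2, 5 with all UMIs, 5 when thinned to 1000 UMIs and 0 with the 5% mitochondrial limit, and 3 to 7 with 1 mouse left out. Il13+ cells of the Tfh sort had 0 called members, against 2 without the count filter, 1 without the replicate block, 3 with all UMIs, 2 in depth-matched cells and 1 in another thinning draw, and 0 to 2 with 1 mouse left out. Gata3+ cells of the Tfh sort had 1 called member, against 0 with DESeq2, 3 without the count filter, 12 with all UMIs, 0 with states called on thinned counts, 0 in depth-matched cells, 0 among cycling cells and 2 in another thinning draw, and 1 to 2 with 1 mouse left out. Il4+ cells of the Tfh sort had 0 called members, against 3 with all UMIs, 2 when thinned to 1000 UMIs, 1 with states called on thinned counts, 4 in depth-matched cells and 1 without cells holding an Mki67 or Top2a UMI, and 0 whichever mouse was left out. Il21+ cells of the Tfh sort had 1 called member, against 0 with DESeq2, 3 with all UMIs, 4 in depth-matched cells, 0 without cells holding an Mki67 or Top2a UMI, 0 among cycling cells and 0 in another thinning draw, and 0 to 2 with 1 mouse left out. Cycling cells of the Tfh sort had 12 called members, against 5 with DESeq2 and 20 with all UMIs, and 7 to 15 with 1 mouse left out. B cells of the Tfh sort had 17 called members, against 7 with DESeq2, and 12 to 17 with 1 mouse left out. Plasma-like cells of the Tfh sort had 11 called members, and 3 to 8 with 1 mouse left out. The Il13 difference between sorts had 7 called members, against 1 with DESeq2, 13 with all UMIs, 4 with states called on thinned counts, 0 in depth-matched cells and 0 without cells holding an Mki67 or Top2a UMI, and 5 to 7 with 1 mouse left out. The Il4 difference between sorts had 4 called members, against 1 with DESeq2, 1 without the count filter, 1 without the replicate block, 1 when thinned to 1000 UMIs, 2 with states called on thinned counts, 1 in depth-matched cells, 2 with the 5% mitochondrial limit, 0 without cells holding an Mki67 or Top2a UMI and 0 among cycling cells, and 0 to 1 with 1 mouse left out. The cycling difference between sorts had 13 called members, against 5 with DESeq2, 21 with all UMIs, 4 when thinned to 1000 UMIs, 5 with states called on thinned counts, 1 in depth-matched cells and 7 with the 5% mitochondrial limit, and 7 to 10 with 1 mouse left out.

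Of 1851 values of called members under alternatives, 1301 kept direction and call, 498 kept direction without a call and 52 turned sign; the causes were not tested. In depth-matched cells, log2 changes of the opposite sign were Hspd1 -0.26 and Sdf2l1 -0.11 in cycling cells of the Tfh sort; Hspe1 -0.26, Hspa8 -0.030 and Dnajb9 0.19 in Il13+ cells of the reporter sort; Hspd1 -0.088 and Hsp90aa1 -0.20 in Il4+ cells of the reporter sort; Hsp90ab1 -0.0046 and Hspe1 -0.25 in Gata3+ cells of the reporter sort; Hspd1 -0.036, Hsp90ab1 -0.051, Hspe1 -0.34, Sec61b -0.022, Dnajb9 0.049, Ddit3 0.13 and Hsph1 -0.32 in cycling cells of the reporter sort; Pdia6 -0.044 and Hspe1 -0.22 in the Il13 difference between sorts; Sec61b -0.011 and Hspa8 -0.14 in the cycling difference between sorts. Without cells holding an Mki67 or Top2a UMI, log2 changes of the opposite sign were Hspd1 -0.11, Hsp90aa1 -0.0010, Hsp90ab1 -0.014, Hspe1 -0.20 and Hsph1 -0.95 in Il13+ cells of the reporter sort; Hspd1 -0.33 in Il4+ cells of the reporter sort; Hspe1 -0.071 in Gata3+ cells of the reporter sort; Hspd1 -0.066 in the Il4 difference between sorts. With states called on thinned counts, log2 changes of the opposite sign were Calr -0.14, Hsp90b1 -0.67, Manf -1.06, Hspd1 -0.70, Pdia6 -0.57, Sec61b -0.77, Hspa8 -0.98 and Hsp90aa1 -0.50 in Il4+ cells of the reporter sort; Hsp90ab1 -0.065 in Il21+ cells of the reporter sort; Hsp90aa1 -0.10, Hsp90ab1 -0.0016, Hspa8 -0.045, Hspe1 -0.11, Sec61b -0.027 and Creld2 -0.091 in Gata3+ cells of the reporter sort; Hspa8 -0.90, Hsp90b1 -0.69, Calr -0.12 and Hspd1 -0.33 in the Il4 difference between sorts. Among cycling cells, log2 changes of the opposite sign were Hsp90aa1 -0.053 in Il4+ cells of the reporter sort; Hspa8 -0.036 in Gata3+ cells of the reporter sort. With the 5% mitochondrial limit, log2 changes of the opposite sign were Calr -0.048 and Pdia3 0.12 in B cells of the reporter sort. When thinned to 1000 UMIs, log2 changes of the opposite sign were Calr -0.057 in the Il4 difference between sorts. Plasma-like cells could not be depth-matched or refitted without Cd3 UMIs, and Il13+ cells of the Tfh sort were too few among cycling cells. Counts per mouse limit what could be seen in the Tfh sort (25, 32 and 11 Il13+ cells) and in plasma-like cells (9, 6 and 6), and scarce members such as Ddit3, Hspa1a and the ATF4 targets were at or near the count minimum.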
